A study of Mus musculus with 52 samples.

Results

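The comparison described here is the interaction between treatment and material for a CD40 antibody (CD40 mAb): the change from vehicle to CD40 mAb in CD45+Ly6G- cells sorted from tumors, minus the same change in whole tumor. It rests on 16 of the 52 libraries of the series, chosen by their titles and treatment labels, and no measured value entered that choice. The groups were sorted cells after CD40 mAb (n = 3, numbered 6, 7 and 10 in the titles), sorted cells after vehicle (n = 4, numbers 6, 7, 9 and 10), whole tumor after CD40 mAb (n = 5, numbers 1 to 5) and whole tumor after vehicle (n = 4, numbers 1, 2, 4 and 5). All 16 libraries came from hCD40tg mice bearing MC38-CEACAM5 tumors, MC38 being a mouse colon carcinoma line that here carries the human antigen CEACAM5. The sorted and the whole tumor libraries share no number, so the material and the mice it came from cannot be told apart. The labels do not say that each number is a separate mouse or a pool, and p-values measure the spread between these libraries. The sources used here give neither dose, time of collection, age of the mice nor the promoter behind the human CD40 transgene. The transgene itself was not analysed here.

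CD40 is a receptor of the tumor necrosis factor receptor family on dendritic cells, macrophages, monocytes and B cells. When it is cross-linked by its ligand on helper T cells or by an agonistic antibody, TRAF adaptor proteins bind its tail and the canonical and non-canonical NF-kappaB pathways are switched on, which leads to costimulatory molecules, cytokines and chemokines. In a whole tumor the RNA of such cells is diluted by that of tumor cells and stroma, whereas a sort on CD45 keeps leukocytes and a gate against Ly6G leaves out neutrophils.

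The labels were checked against marker genes, with levels given as CPM, counts scaled to the size of each library. Ptprc, which encodes CD45, lay at 1258 to 1529 CPM in sorted CD40 mAb and 1463 to 1783 CPM in sorted vehicle libraries, and at 98.8 to 539 CPM in CD40 mAb tumors and 169 to 271 CPM in vehicle tumors. Ly6g, the neutrophil antigen gated out, was at 0 in every sorted CD40 mAb library and at most 0.0872 CPM in sorted vehicle libraries, but it was also at most 0.199 CPM in CD40 mAb and 0.0185 CPM in vehicle tumors, so its level does not check the gate. The summed level of fibroblast and matrix genes was 357 to 658 CPM in sorted CD40 mAb and 472 to 779 CPM in sorted vehicle libraries, against 10050 to 16240 CPM in CD40 mAb tumors and 13680 to 19110 CPM in vehicle tumors. Epithelial markers did not set the tumors apart, with summed levels of 23.6 to 54.0 CPM and 49.9 to 71.6 CPM in sorted CD40 mAb and vehicle cells and 6.64 to 349 CPM and 11.9 to 36.8 CPM in CD40 mAb and vehicle tumors. The library tumor CD40 mAb 5 stood apart: Ptprc was at 539 CPM there and at 98.8 to 231 CPM in the other CD40 mAb tumors, and the T cell gene Cd3e was at 120 CPM against 2.33 to 10.9 CPM. Total counts were 38636961 to 40946237 in sorted CD40 mAb and 30239584 to 47447679 in sorted vehicle libraries. In tumor they were 49658464 to 64194488 with CD40 mAb and 49034985 to 60694297 with vehicle. The first principal component, with 67.4% of the variance, separated sorted cells from tumor.

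Over 19478 genes tested, CD40 mAb acted differently in the 2 materials on 50 genes (0.257% of those tested), 26 with a higher change in sorted cells than in tumor (0.133%) and 24 with a lower one (0.123%), at an adjusted p under 0.05. Within sorted cells 950 genes changed (4.88%), 475 higher (2.44%) and 475 lower (2.44%), and within whole tumor edgeR called 0 genes (0%), with 2002 at an unadjusted p under 0.05 and 24 called by DESeq2. All 50 interaction genes were also among those that changed in sorted cells. Their tumor changes were small, with a median absolute log2 change of 0.18. In 32 of the 50 the tumor change had the opposite sign, where 53.4% of all genes had matching signs. In sorted cells the CD40 mAb and vehicle libraries did not overlap for any of the 50, beside 18.7% of all genes. The sorted change and the tumor change are both terms of the difference tested, so these counts and the small tumor changes follow in part from the choice of genes. In bulk RNA, fewer cells of a type and less RNA per cell cannot be told apart, in either material. The count of 50 depended on single libraries. It was 22, 246 and 25 without sorted CD40 mAb 6, 7 and 10, and 126, 20 and 33 without sorted vehicle 7, 9 and 10. It was 31, 23 and 86 without tumor CD40 mAb 1, 3 and 5, and 16, 18, 12 and 16 without tumor vehicle 1, 2, 4 and 5. With libraries scaled on pan-leukocyte genes in place of all genes, 0 genes were called for the interaction (1280 at an unadjusted p under 0.05) and 52 in sorted cells.

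**Figure D1:**
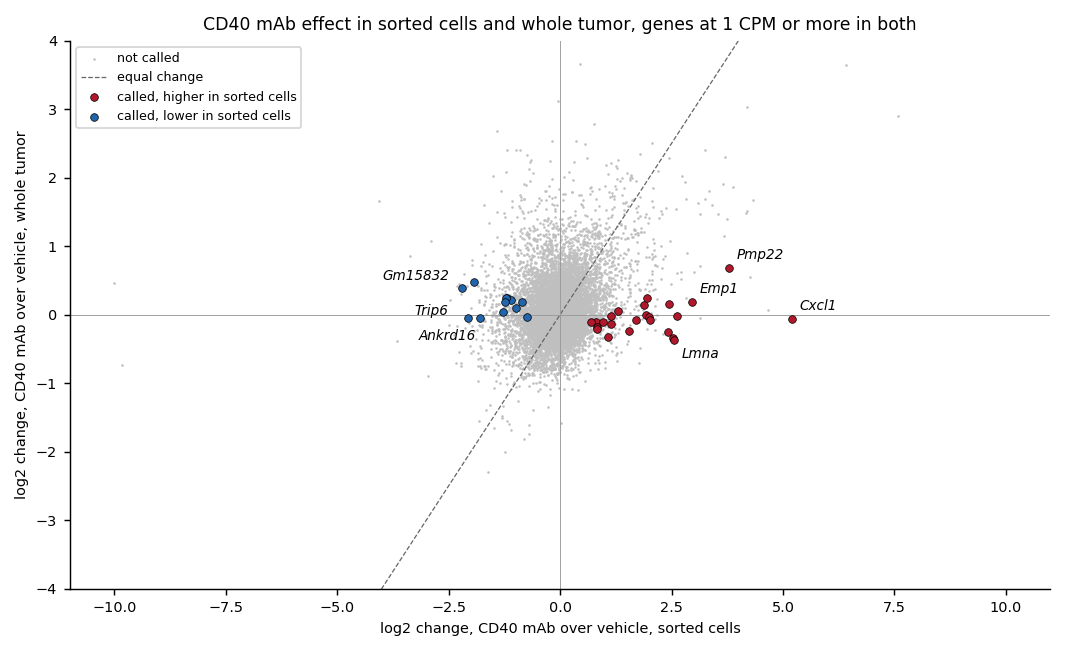
Log2 change of CD40 mAb over vehicle in sorted cells (x axis) and in whole tumor (y axis) for the 12255 genes at 1 CPM or more in both materials, with the dashed line marking equal change. The 24 genes called higher (red) and the 12 called lower (blue) spread along the x axis and lie close to 0 on the y axis, where none moved by more than 0.68.

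Genes at 1 CPM or more on average in both materials numbered 12255. Of these, 24 were called higher (0.196%) and 12 lower (0.0979%). All 24 encode proteins. They are given by the known roles of single genes, and no grouping of them by role was tested.

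The largest difference among them was that of Cxcl1, the chemokine that draws neutrophils through the receptor CXCR2 (ENSMUSG00000029380, chr5:90891241-90893115, GRCm38). Its level was 21.3, 6.62 and 21.5 CPM in the sorted CD40 mAb libraries and 0.762, 0.241, 0.126 and 0.639 CPM in sorted vehicle, against 4.03, 3.45, 5.01, 2.24 and 3.01 CPM in CD40 mAb tumors and 3.97, 3.85, 3.84 and 3.19 CPM in vehicle tumors. In sorted cells every CD40 mAb library stood above every vehicle library, and in tumor the groups overlapped. The log2 change was 5.199 ± 0.56 in sorted cells (SE, adjusted p = 0.000332) and -0.06 ± 0.43 in tumor (adjusted p = 0.97), a difference of 5.26 ± 0.68 (95% interval 3.82 to 6.71, adjusted p = 0.00453). It stayed called without each of the 16 libraries in turn. Among the other neutrophil chemokines, Cxcl2 had log2 changes of 3.71 ± 0.77 in sorted cells, where it rose (adjusted p = 0.0163), and 2.30 ± 0.73 in tumor, with a difference of 1.40 ± 1.00 that did not pass (adjusted p = 0.529). Cxcl3 had 3.80 ± 1.12 and 3.05 ± 1.06, and passed in neither (adjusted p = 0.0646 in sorted cells). The 17 inflammatory genes had a median difference of 0.16, with Cxcl1 as the single member called, beside a median of -0.09 over all genes.

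The sequence around the RefSeq start is shown for Cxcl1 and Emp1, genes called higher whose windows hold a motif of a factor that CD40 is known to engage, NF-kappaB or AP-1. Each runs from 250 bases before to 50 bases after the RefSeq start (GRCm38.p6), in lower case with motif matches in capitals, Cxcl1 at chr5:90890995-90891294, plus strand, and Emp1 at chr6:135362681-135362980, plus strand.
Cxcl1: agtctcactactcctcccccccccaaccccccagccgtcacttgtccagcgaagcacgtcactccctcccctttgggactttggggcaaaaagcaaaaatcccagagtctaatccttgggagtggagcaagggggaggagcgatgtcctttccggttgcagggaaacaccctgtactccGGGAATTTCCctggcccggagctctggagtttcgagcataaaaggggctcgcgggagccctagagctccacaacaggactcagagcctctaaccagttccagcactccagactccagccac
Emp1: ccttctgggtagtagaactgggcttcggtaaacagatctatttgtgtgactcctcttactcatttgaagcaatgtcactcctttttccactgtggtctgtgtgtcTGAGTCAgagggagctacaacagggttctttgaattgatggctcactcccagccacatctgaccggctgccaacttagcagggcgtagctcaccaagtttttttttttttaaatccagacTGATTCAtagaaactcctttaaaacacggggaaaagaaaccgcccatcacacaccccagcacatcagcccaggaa
The kappaB motif searched on both strands, GGGA followed by any base and TTTCC, has its first base at -71 in the Cxcl1 window and occurs in 81 of 20595 promoters (0.393%). The AP-1 motif, TGANTCA, which reads the same on both strands and shares no base with the kappaB match, starts at -145 and -25 in the Emp1 window and occurs in 1523 promoters (7.39%). RefSeq windows matched 20 of the 26 genes called higher, of which 1 held the kappaB motif (Cxcl1) and 2 the AP-1 motif (Emp1 and Lmna). The windows of Emp1 and Lmna lie inside the gene as GENCODE annotates it, so they may not be the promoters in use. Of the 16 genes called lower with a window, 0 held either. A match is a string of letters and was not tested as a binding site.

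Nrp2, a coreceptor for semaphorins and vascular growth factors (ENSMUSG00000025969, chr1:62703285-62818695), was at 214, 82.95 and 196 CPM in sorted CD40 mAb and 32.4, 27.7, 28.2 and 33.1 CPM in sorted vehicle libraries. Tumor levels were 137 to 259 CPM in CD40 mAb tumors and 157 to 209 CPM in vehicle tumors. The changes differed by 2.27 ± 0.37 (adjusted p = 0.0209). Plxna1, a plexin that transmits semaphorin signals (ENSMUSG00000030084, chr6:89316314-89362620), was at 221, 127 and 193 CPM in sorted CD40 mAb and 48.7, 28.7, 54.00 and 49.1 CPM in sorted vehicle libraries. Tumor levels were 128 to 175 and 138 to 178 CPM in CD40 mAb and vehicle tumors, and the changes differed by 2.04 ± 0.28 (adjusted p = 0.00707). For both genes the sorted groups were apart and the tumor groups overlapped. Flrt2, a membrane protein that binds Unc5 receptors (ENSMUSG00000047414, chr12:95692226-95785215), was at 26.96, 20.6 and 14.6 CPM in sorted CD40 mAb and 3.302, 2.69, 4.95 and 3.26 CPM in sorted vehicle libraries, with a difference of 2.88 ± 0.42 (adjusted p = 0.00961). In tumor it lay at 55.9, 50.2, 60.1, 66.9 and 20.5 CPM with CD40 mAb and 62.1 to 66.7 CPM with vehicle, the lowest value being that of tumor CD40 mAb 5. Plxna1 and Flrt2 stayed called without each library in turn, whereas Nrp2 lost its call without sorted CD40 mAb 6 or 10, sorted vehicle 9, or tumor vehicle 2 or 4 (highest adjusted p 0.0594). Nectin1, an adhesion molecule of the immunoglobulin family, and Ctnnd1, the p120 catenin that binds cadherins, were also called, with differences of 1.28 ± 0.22 and 1.17 ± 0.22.

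**Figure D2:**
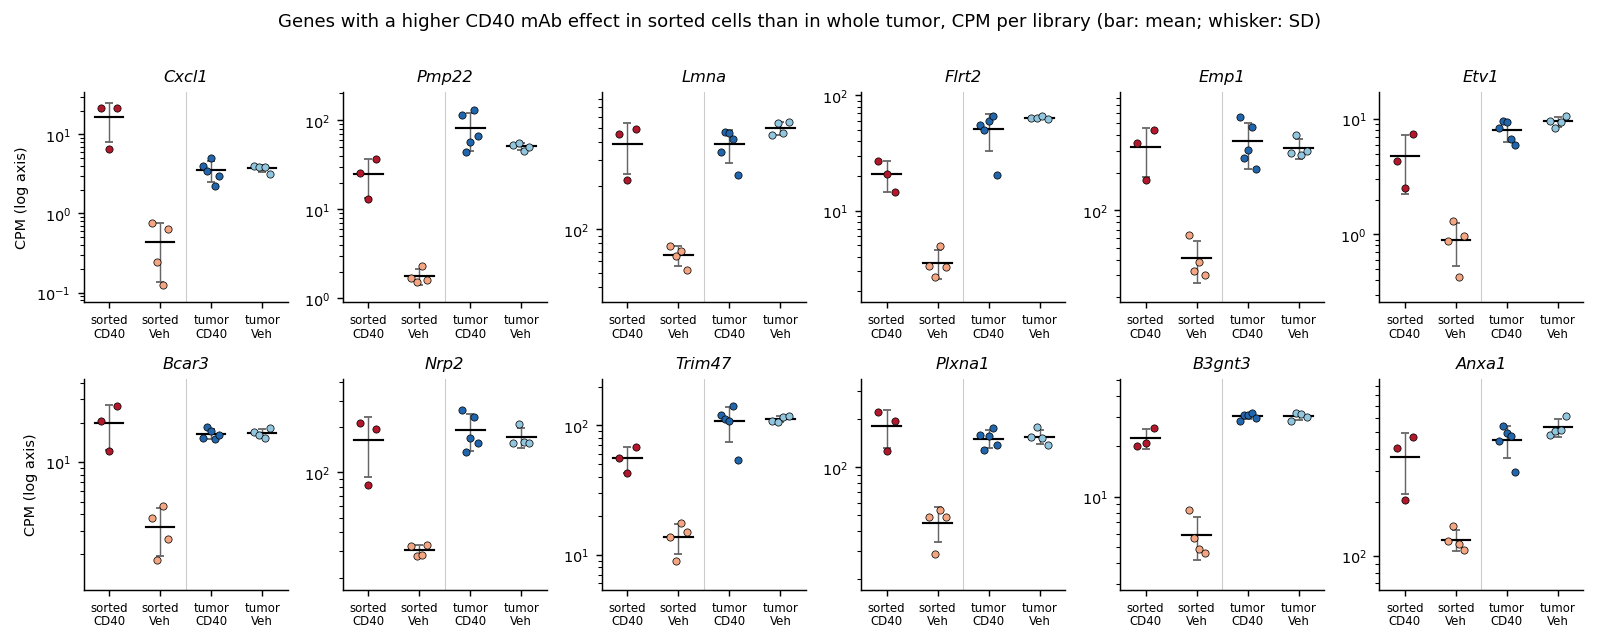
CPM per library (log axis) of the 12 genes with the largest positive differences, in sorted CD40 mAb, sorted vehicle, tumor CD40 mAb and tumor vehicle libraries; bars are means and whiskers SD. In each panel the 3 sorted CD40 mAb libraries lie above the 4 sorted vehicle libraries.

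Pmp22, a myelin protein also made outside nerve (ENSMUSG00000018217, chr11:63128982-63159547), was at 25.7, 12.9 and 36.3 CPM in sorted CD40 mAb and 1.71, 1.52, 2.32 and 1.63 CPM in sorted vehicle libraries. Tumor levels were 114, 44.4, 56.6, 130 and 66.8 CPM in CD40 mAb and 53.3, 56.1, 45.2 and 50.3 CPM in vehicle tumors. It differed by 3.11 ± 0.48 between the materials (adjusted p = 0.0167), and its tumor change of 0.68 ± 0.31 had the same sign and did not pass (adjusted p = 0.484). Its relative Emp1 (ENSMUSG00000030208, chr6:135362545-135383173) was at 346, 175 and 440 CPM in sorted CD40 mAb and 63.4, 32.6, 38.2 and 30.4 CPM in sorted vehicle libraries. Tumor levels were 216 to 558 and 276 to 404 CPM in CD40 mAb and vehicle tumors, and the changes differed by 2.77 ± 0.48 (adjusted p = 0.0247). The tetraspanin Tspan3 was at 79.6, 51.3 and 72.8 CPM in sorted CD40 mAb and 19.6, 18.5, 14.8 and 17.3 CPM in sorted vehicle libraries. Tumor levels were 100 to 128 and 86.6 to 96.4 CPM in CD40 mAb and vehicle tumors, and the changes differed by 1.70 ± 0.19 (adjusted p = 0.00203). Tspan3 was one of the pair of genes with the smallest p, the other being Rgl1, and both were chosen after their values were seen. In tumor the Tspan3 groups did not overlap either, but by a smaller change (0.25 ± 0.13, adjusted p = 0.5). Pmp22 and Tspan3 kept their call without each library in turn. Emp1 lost it without any of 10 libraries, namely sorted CD40 mAb 6 and 10, sorted vehicle 9 and 10, tumor CD40 mAb 2 and 3 and all 4 vehicle tumors (highest adjusted p 0.0754).

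Among intracellular proteins, Lmna, which encodes the A-type lamins of the nuclear envelope (ENSMUSG00000028063, chr3:88480147-88509956), was at 454, 219 and 497 CPM in sorted CD40 mAb and 76.1, 65.2, 70.4 and 52.2 CPM in sorted vehicle libraries. In tumor it was at 342, 474, 460, 423 and 236 CPM with CD40 mAb and 451, 540, 463 and 556 CPM with vehicle. The sorted groups were far apart and the tumor groups overlapped, with changes of 2.56 ± 0.27 and -0.38 ± 0.23 and a difference of 2.94 ± 0.35 (adjusted p = 0.00246). Rgl1, an exchange factor for the small GTPase Ral (ENSMUSG00000026482, chr1:152516760-152766351), was at 152, 165 and 242 CPM in sorted CD40 mAb and 58.1, 59.8, 60.2 and 51.97 CPM in sorted vehicle libraries. Tumor levels were 84.7 to 112 and 96.4 to 119 CPM in CD40 mAb and vehicle tumors, and the changes differed by 1.77 ± 0.20 (adjusted p = 0.00203). B3gnt3, a glycosyltransferase that extends sugar chains (ENSMUSG00000031803, chr8:71690756-71701789), was at 20.2, 21.1 and 25.8 CPM in sorted CD40 mAb and 8.31, 5.62, 4.85 and 4.62 CPM in sorted vehicle libraries, and its tumor change was -0.002 ± 0.15, with 28.4 to 31.5 CPM after CD40 mAb and 28.4 to 31.5 CPM after vehicle. Its difference was 1.94 ± 0.23 (adjusted p = 0.00246). Bcar3, an adaptor of integrin signaling, differed by 2.63 ± 0.37 (adjusted p = 0.00877), at 19.7 ± 7.28 CPM in sorted CD40 mAb (SD, n = 3) and 3.198 ± 1.27 CPM in sorted vehicle cells (n = 4). In tumor Bcar3 averaged 16.4 ± 1.47 CPM with CD40 mAb (n = 5) and 16.6 ± 1.26 CPM with vehicle (n = 4). Lmna, Rgl1, B3gnt3 and Bcar3 stayed called without each library in turn, with adjusted p of 7.9e-05 to 0.0337.

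The transcription factor Etv1, the ubiquitin ligase Trim47 and the annexin Anxa1, a protein known to restrain inflammation, were called with less margin. Etv1 was at 4.28, 2.52 and 7.42 CPM in sorted CD40 mAb and 0.878, 1.31, 0.429 and 0.959 CPM in sorted vehicle libraries (2.66 ± 0.48, adjusted p = 0.0369). Trim47 was at 56.3, 42.8 and 67.6 CPM in sorted CD40 mAb and 13.7, 8.96, 17.5 and 14.9 CPM in sorted vehicle libraries (2.08 ± 0.35, adjusted p = 0.0247). Anxa1 was at 403, 207 and 465 CPM in sorted CD40 mAb and 121, 148, 116 and 108 CPM in sorted vehicle libraries (1.78 ± 0.32, adjusted p = 0.034). The sorted groups of all 3 genes were apart. In CD40 mAb and vehicle tumors the groups overlapped, at 5.94 to 9.64 and 8.399 to 10.7 CPM for Etv1, 53.96 to 142 and 107 to 119 CPM for Trim47 and 296 to 538 and 480 to 615 CPM for Anxa1. Leaving out sorted CD40 mAb 6 or 10, tumor CD40 mAb 3, or any 1 of the 4 vehicle tumors ended each of these calls. For Etv1 and Anxa1 the same held for sorted vehicle 6, 9 or 10 and tumor CD40 mAb 1 or 4, and the highest adjusted p was 0.0867 for Etv1, 0.0684 for Trim47 and 0.0814 for Anxa1. Of the 24 genes, sorted CD40 mAb 7 was the treated library closest to vehicle in 20, sorted CD40 mAb 6 in 3 and sorted CD40 mAb 10 in 1. The other genes called at this level were Timp2, Slc29a1, Sgms1, Myof, Cyfip1, Ano6, Alg9 and Ptpn12, with differences of 0.79 to 1.75.

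The difference tested contains vehicle tumor minus sorted vehicle, so the vehicle levels of the called genes are a description that their choice fixes in part. In vehicle libraries the mean level was lower in sorted cells than in whole tumor for 21 of the 24 genes (87.5%, beside 49.1% of the 12255 genes), and the median ratio of vehicle tumor to sorted vehicle was 4.74, beside 0.982 over all those genes. After CD40 mAb, sorted cells were above vehicle tumor for 12 of the 24, beside 6264 of the 12255 genes. The summed fibroblast genes, given above, overlapped between sorted CD40 mAb and sorted vehicle libraries and stayed far under the tumor level in both, while the summed epithelial markers were 23.6 to 54.0 CPM in sorted CD40 mAb and 49.9 to 71.6 CPM in sorted vehicle libraries. The epithelial list was no higher in vehicle tumors than in sorted vehicle cells and so cannot show tumor cells in the sort. The part of cells carried over into the sort was not tested. A pair of genes called higher lay under 1 CPM in sorted cells and are named after their values were seen. Smoc1, a secreted matrix protein, was at 1.46, 0.763 and 0.739 CPM in sorted CD40 mAb and 0.231, 0.276, 0.227 and 0.204 CPM in sorted vehicle libraries. Tumor levels were 14.2 to 20.9 and 14.9 to 17.9 CPM in CD40 mAb and vehicle tumors. Sh2d4a, an adaptor protein, was at 1.96, 0.792 and 1.2 CPM in sorted CD40 mAb libraries and at 0 in 3 of 4 sorted vehicle libraries, so that its fitted difference is no measure of size. Smoc1 lost its call without sorted vehicle 9 or tumor vehicle 4 or 5, and Sh2d4a without sorted CD40 mAb 6 or tumor vehicle 1, 4 or 5.

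Of the 12 genes called lower at 1 CPM or more in both materials, 9 met the naming rule. Clk4, a kinase of splicing factors (ENSMUSG00000020385, chr11:51261730-51281766), was at 28.6, 32.3 and 26.4 CPM in sorted CD40 mAb and 54.96, 44.8, 71.00 and 77.98 CPM in sorted vehicle libraries. Tumor levels were 19.9 to 27.03 CPM in CD40 mAb and 18.96 to 21.2 CPM in vehicle tumors. The changes differed by -1.31 ± 0.22 (adjusted p = 0.0247). Ccnl2, a cyclin that takes part in splicing (ENSMUSG00000029068, chr4:155812489-155824543), was at 117, 121 and 102 CPM in sorted CD40 mAb and 219, 180, 293 and 334 CPM in sorted vehicle libraries. Tumor levels were 55.7 to 78.9 and 48.9 to 65.4 CPM in CD40 mAb and vehicle tumors, and the changes differed by -1.43 ± 0.26 (adjusted p = 0.0395). Both fell in sorted cells and had small positive changes in tumor that did not pass (0.22 ± 0.15 and 0.25 ± 0.17). Trip6, an adaptor at cell adhesions (ENSMUSG00000023348, chr5:137309654-137314404), had the largest negative difference of those named at this level, -2.0 ± 0.34 (adjusted p = 0.0247). It was at 4.26, 4.64 and 5.29 CPM in sorted CD40 mAb and 14.6, 13.7, 26.2 and 24.01 CPM in sorted vehicle libraries. Tumor levels were 21.7 to 43.4 and 34.7 to 43.1 CPM in CD40 mAb and vehicle tumors. Ankrd16, known in mice to limit errors of alanyl-tRNA synthetase (ENSMUSG00000047909, chr2:11777876-11790329), was at 16.7, 20.7 and 19.02 CPM in sorted CD40 mAb and 56.6, 41.1, 73.6 and 90.5 CPM in sorted vehicle libraries. Tumor levels were 13.2 to 18.1 and 13.2 to 19.2 CPM in CD40 mAb and vehicle tumors, and the changes differed by -1.75 ± 0.29 (adjusted p = 0.0247). Vehicle levels of the 12 ran the other way from those of the 24, with sorted vehicle under vehicle tumor for 1 of 12 (8.33%) and a median ratio of vehicle tumor to sorted vehicle of 0.333.

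**Figure D3:**
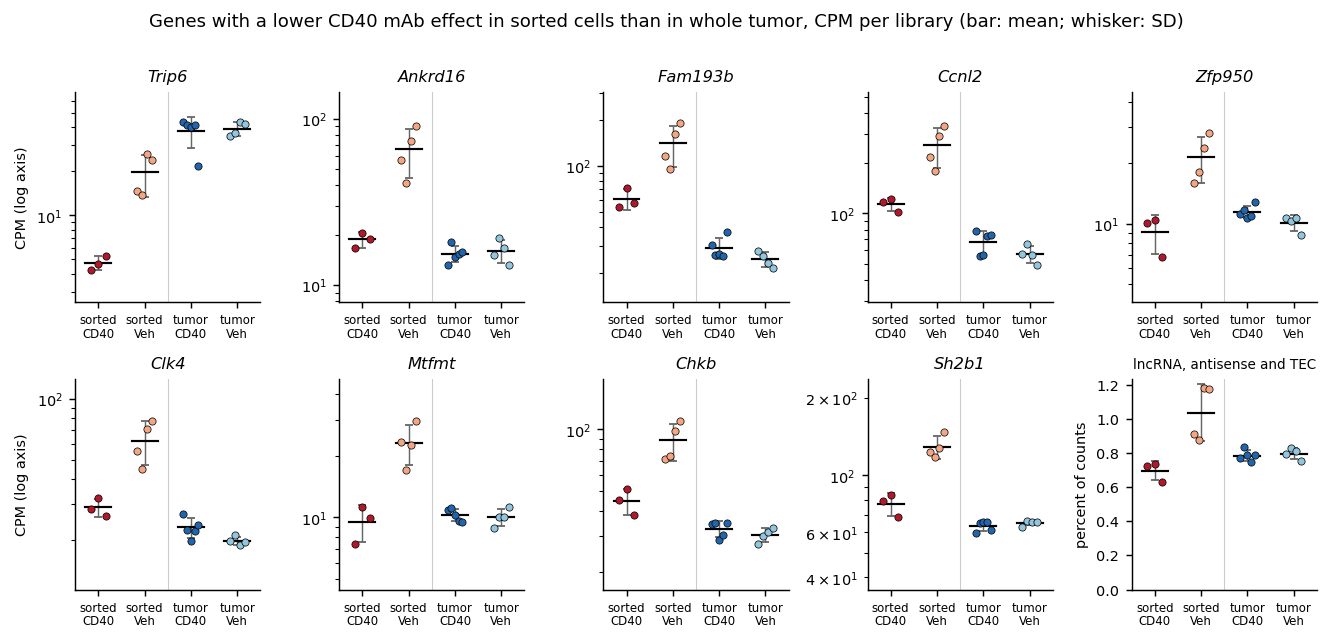
CPM per library (log axis) of the 9 named genes with a negative difference, and, in the last panel, the percent of counts on lncRNA, antisense and unclassified (TEC) genes, in sorted CD40 mAb, sorted vehicle, tumor CD40 mAb and tumor vehicle libraries; bars are means and whiskers SD. In all 10 panels the sorted CD40 mAb libraries lie below the sorted vehicle libraries, while the tumor groups lie close together.

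The remaining named genes of that group were Fam193b (-1.45 ± 0.28), the zinc finger gene Zfp950 (-1.42 ± 0.27), Mtfmt, which formylates the initiator tRNA of mitochondria (-1.31 ± 0.26), Chkb, a choline kinase (-1.08 ± 0.21), and Sh2b1, an adaptor of insulin and leptin signaling (-0.70 ± 0.14), each with an adjusted p of 0.0483. Sh2b1 was at 79.2, 84.1 and 68.6 CPM in sorted CD40 mAb and 123, 118, 128 and 148 CPM in sorted vehicle libraries, and Chkb at 38.2 to 51.1 and 71.3 to 109 CPM. Leaving out sorted CD40 mAb 6 or 10, sorted vehicle 9, or tumor vehicle 1, 4 or 5 ended the calls of all 9 named genes. All but Clk4 and Ankrd16 also lost theirs without sorted vehicle 10, all but Ankrd16 without tumor vehicle 2, and all but Clk4 and Ankrd16 without tumor CD40 mAb 3. Without tumor CD40 mAb 1 or 4 the calls of Ccnl2, Fam193b, Zfp950, Mtfmt, Chkb and Sh2b1 ended, without tumor CD40 mAb 2 the same but Ccnl2, and without sorted vehicle 6 those of Mtfmt and Sh2b1. The highest adjusted p in these fits was 0.125. Some measures of the libraries are given beside the lower genes. LncRNA, antisense and unclassified genes took 0.632 to 0.735% of counts in sorted CD40 mAb and 0.876 to 1.18% in sorted vehicle libraries, against 0.748 to 0.834% in CD40 mAb and 0.754 to 0.831% in vehicle tumors. The nuclear RNA Malat1 was at 226 to 291 CPM in sorted CD40 mAb and 458 to 654 CPM in sorted vehicle libraries, and Neat1 at 408 to 477 and 471 to 953 CPM, where the groups overlapped. Neither passed in sorted cells (adjusted p = 0.0727 for Malat1 and 0.124 for Neat1) or for the interaction (adjusted p = 0.141 and 0.191). The part of these measures in the results was not tested.

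A further 12 genes called lower lay under 1 CPM in sorted cells. No sorted CD40 mAb library held more than 1 count of any of them, and 9 were at 0 in all 3. Of the 12, 3 are annotated as protein coding, and 9 were under 1 CPM in tumor as well. Their highest level in a sorted vehicle library was 2.21 CPM. Gm42664, a transcript that overlaps Ptbp2 on the same strand, was at 0, 0 and 0.0308 CPM in sorted CD40 mAb and 1.16, 1.52, 1.16 and 2.21 CPM in sorted vehicle libraries, and at 0.306 to 0.872 and 0.326 to 0.726 CPM in CD40 mAb and vehicle tumors. Meg3, an imprinted non-coding RNA, was at 0, 0 and 0.0308 CPM in sorted CD40 mAb and 0.554, 0.138, 0.278 and 0.494 CPM in sorted vehicle libraries. Tumor levels were 4.36 to 15.96 CPM in CD40 mAb and 3.298 to 5.64 CPM in vehicle tumors. Meg3 was the one gene of the 50 with a tumor change over 1 on the log2 scale, which did not pass (1.24 ± 0.47, adjusted p = 0.483). Both are named after their values were seen, and fitted differences of genes at 0 in a group are not given as sizes. By the annotation, 14 of the 26 genes called higher and 10 of 22 called lower overlap a gene on the other strand, and 10 and 5 overlap one on the same strand. The sources used here do not say whether counting used strand, so shared reads cannot be told apart for these.

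Genes of CD40 signaling themselves showed no called difference. Mouse Cd40 (ENSMUSG00000017652, chr2:165055627-165072948) was at 135, 175 and 183 CPM in sorted CD40 mAb and 128, 126, 166 and 166 CPM in sorted vehicle libraries. Tumor levels were 18.8, 31.5, 35.9, 16.3 and 47.5 CPM in CD40 mAb and 39.6, 37.4, 31.1 and 32.7 CPM in vehicle tumors. The changes differed by 0.40 ± 0.38 (95% interval -0.41 to 1.2, adjusted p = 0.657). Of the 12 CD40 signaling genes 0 were called for the interaction, with a median of -0.08 and 1 at an unadjusted p under 0.05. That one was Nfkb2, the precursor of the non-canonical NF-kappaB subunit, at 256 to 308 CPM in sorted CD40 mAb and 191 to 247 CPM in sorted vehicle libraries. Tumor levels were 143 to 309 and 294 to 350 CPM in CD40 mAb and vehicle tumors, and the changes differed by 0.92 ± 0.30 (adjusted p = 0.19). The adaptor genes Traf3 and Traf5 had differences of 0.26 ± 0.16 and -0.43 ± 0.24, that of Traf3 turning to -0.042 with pan-leukocyte scaling. Among 15 NF-kappaB targets 0 were called for the interaction. In that list Nfkbia, the feedback inhibitor IkappaB-alpha, rose in sorted cells, at 403, 255 and 314 CPM with CD40 mAb and 183, 166, 154 and 145 CPM with vehicle (log2 change 1.00 ± 0.18, adjusted p = 0.00885). Its tumor change was 0.27 ± 0.16, and the difference of 0.73 ± 0.24 did not pass (adjusted p = 0.192).

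Of 18 macrophage markers 3 rose in sorted cells, Folr2, Mrc1 and Gpnmb, beside 2.44% of all genes, and 0 were called for the interaction. Positive changes were seen in 16 in sorted cells and in 16 in tumor, beside 9125 and 10756 of all 19478 genes. The median was 0.74 in sorted cells, 0.48 in tumor and 0.26 for the difference. The tumor value rested on tumor CD40 mAb 5, with a summed level of 17800 CPM against 4381 to 7205 CPM in the other CD40 mAb tumors and 5775 to 7744 CPM in vehicle tumors. Without that library the median was 0.04 in tumor and 0.70 for the difference. The summed level in sorted cells was 8344, 23220 and 15160 CPM in CD40 mAb 6, 7 and 10. In sorted vehicle libraries it was 9302 to 12280 CPM, so the groups overlapped, with sorted CD40 mAb 6 below the vehicle range. Folr2, a folate receptor of resident macrophages (ENSMUSG00000032725, chr7:101839988-101857194), came closest, at 70.7, 43.5 and 139 CPM in sorted CD40 mAb and 3.56, 5.099, 5.02 and 4.77 CPM in sorted vehicle libraries. Tumor levels were 95.8, 24.3, 39.4, 42.7 and 83.2 CPM in CD40 mAb and 23.2, 21.7, 12.1 and 22.7 CPM in vehicle tumors. The groups were apart in both materials, with a sorted change of 4.20 ± 0.47 (adjusted p = 0.000486), a tumor change of 1.52 ± 0.40 (adjusted p = 0.483) and a difference of 2.68 ± 0.58 (adjusted p = 0.07). Mrc1, the mannose receptor, had 2.29 ± 0.36 in sorted cells, where it rose, and 0.68 ± 0.31 in tumor, with a difference of 1.61 ± 0.47 (adjusted p = 0.143). Lipid handling genes of macrophages rose in sorted cells in 7 of 14 members, beside 2.44% of all genes, with 0 called for the interaction (medians 1.10 in sorted cells, 0.87 in tumor and 0.38 for the difference, which was 0.67 without tumor CD40 mAb 5). Lpl, lipoprotein lipase, was at 346, 123 and 466.4 CPM in sorted CD40 mAb and 14.9, 17.99, 13.5 and 15.1 CPM in sorted vehicle libraries. Tumor levels were 93.4, 46.5, 228, 114 and 500 CPM in CD40 mAb and 88.4, 26.9, 29.1 and 101 CPM in vehicle tumors, and the changes differed by 2.66 ± 0.90 (adjusted p = 0.201). Cd36, the fatty acid transporter, and Ctsl, a lysosomal protease, rose in sorted cells by 3.24 ± 0.59 and 2.053 ± 0.27, with differences of 1.56 ± 0.74 (adjusted p = 0.339) and 1.54 ± 0.35 (adjusted p = 0.0797). Without sorted CD40 mAb 7 the macrophage median difference was -0.11.

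**Figure D4:**
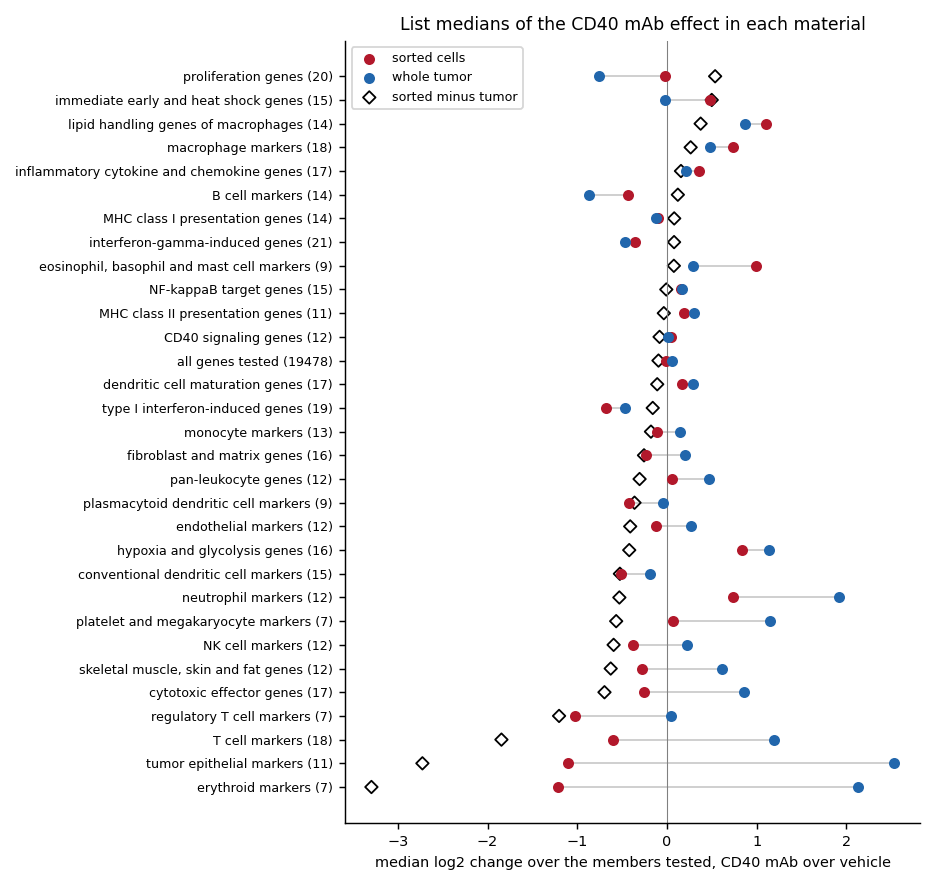
Median log2 change of CD40 mAb over vehicle for each gene list (number of members tested in brackets) in sorted cells (red), in whole tumor (blue), and of the difference (open diamonds); lists run from the highest to the lowest difference. Macrophage, lipid handling and hypoxia genes were positive in both materials and type I interferon-induced genes negative in both, while T cell markers were at -0.60 in sorted cells and 1.19 in tumor, with tumor CD40 mAb 5 included (without it macrophage and T cell medians in tumor were 0.04 and -0.44). In tumor the summed hypoxia level was above the vehicle range only in tumor CD40 mAb 1 and 4. The summed type I interferon level was below it only in tumor CD40 mAb 1, 4 and 5.

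Over all 30 lists, 1 of 412 entries tested was called for the interaction, beside 0.257% of all genes (a gene on several lists counts in each). T cell markers had a negative difference in 18 of 18 members, beside 10940 of 19478 genes, with 0 called (median -1.85, -0.60 in sorted cells and 1.19 in tumor). Cd3e was at 57.6, 49.3 and 30.9 CPM in sorted CD40 mAb and 109, 84.4, 79.8 and 75.3 CPM in sorted vehicle libraries. Tumor levels were 3.19, 9.096, 10.9, 2.33 and 120 CPM in CD40 mAb and 14.4, 8.73, 5.11 and 10.4 CPM in vehicle tumors. The changes differed by -2.51 ± 1.34, which did not pass (adjusted p = 0.39). Tumor CD40 mAb 5 held the high tumor value, and without it the T cell median was -0.58 in sorted cells, -0.44 in tumor and -0.15 for the difference. Among neutrophil markers S100a8, a calcium-binding protein also made by monocytes, rose in sorted cells (adjusted p = 0.00866), at 20.3, 0.339 and 3.48 CPM with CD40 mAb and 0.0693, 0, 0.0757 and 0 CPM with vehicle. Tumor levels were 0.697 to 9.52 and 0.254 to 0.556 CPM in CD40 mAb and vehicle tumors, and the difference between materials did not pass (adjusted p = 0.198). Of the 12 neutrophil markers tested, 5 had a positive difference and 7 a negative one, beside 8538 and 10940 of all 19478 genes. The library tumor CD40 mAb 5 turned the median difference of pan-leukocyte genes (-0.31 with it, 0.28 without), neutrophil markers (-0.53, 0.31), plasmacytoid dendritic cell markers (-0.36, 0.07), dendritic cell maturation genes (-0.11, 0.24) and cytotoxic effector genes (-0.70, 0.14), each list with 0 called. CD40 signaling genes (-0.08, 0.18), NF-kappaB targets (-0.01, 0.27) and MHC class II genes (-0.03, 0.44) also turned, and the last 2 medians changed sign with the scaling of the libraries as well. Regulatory T cell markers had a negative difference in 7 of 7, beside 10940 of 19478 genes, with 0 called. Their median was -1.20 (-0.38 without tumor CD40 mAb 5), with -1.03 in sorted cells and 0.05 in tumor. The summed level was 82.4 to 287 CPM in sorted CD40 mAb and 298.5 to 448 CPM in sorted vehicle libraries. In CD40 mAb and vehicle tumors it was 15.1 to 122 and 28.7 to 59.8 CPM. Ikzf2, the factor Helios, was at 25.1, 19.7 and 12.99 CPM in sorted CD40 mAb and 54.3, 36.9, 60.5 and 53.4 CPM in sorted vehicle libraries. Tumor levels were 4.55 to 18.5 and 8.06 to 11.9 CPM in CD40 mAb and vehicle tumors, and the changes differed by -1.31 ± 0.53 (adjusted p = 0.269).

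**Figure D5:**
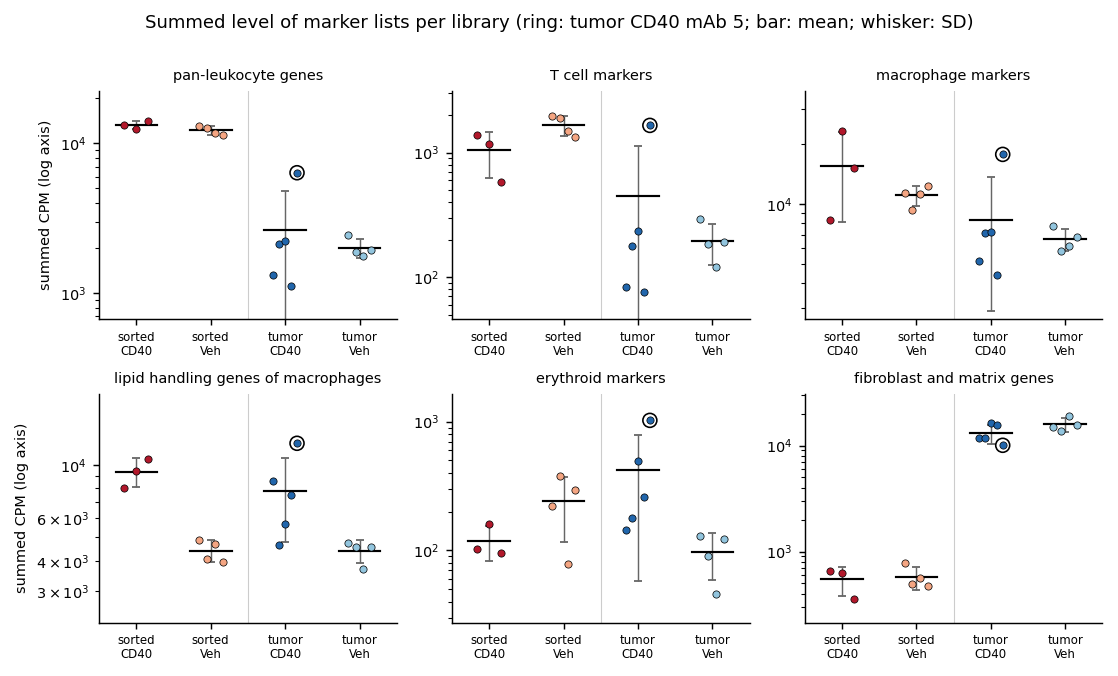
Summed CPM per library (log axis) of 6 gene lists in sorted CD40 mAb, sorted vehicle, tumor CD40 mAb and tumor vehicle libraries, with tumor CD40 mAb 5 ringed; bars are means and whiskers SD, cut at the edge of a panel where they run past it. The ringed library has the highest tumor value for T cell markers (1656 CPM) and pan-leukocyte genes (6368 CPM) and the lowest for fibroblast and matrix genes (10050 CPM).

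Erythroid and epithelial lists had the most negative medians of the difference, -3.30 over 7 members and -2.73 over 11, with 0 called. Tumor CD40 mAb 5 held the highest summed epithelial level, 349 CPM against 6.64 to 97.3 CPM in the other CD40 mAb tumors. Without it the epithelial median was 0.79 in tumor, against 2.54 with it, and -1.92 for the difference, and the erythroid median of the difference was -2.45. Hba-a1, a globin gene whose reads may be split with its near-identical copy Hba-a2, was at 18.3, 28.5 and 19.4 CPM in sorted CD40 mAb and 53.1, 103, 16.7 and 76.5 CPM in sorted vehicle libraries. Tumor levels were 28.6, 37.4, 102, 49.1 and 207 CPM in CD40 mAb and 28.3, 20.95, 8.41 and 25.97 CPM in vehicle tumors, and the difference of -3.52 ± 0.92 did not pass (adjusted p = 0.108). The tumor groups were apart and the sorted groups overlapped. Proliferation genes ran the other way, positive in 19 of 20 members, beside 8538 of 19478 genes, with 0 called (median 0.54, -0.03 in sorted cells and -0.76 in tumor). Top2a, a topoisomerase of dividing cells, was at 46.1 to 96.1 CPM in sorted CD40 mAb and 42.1 to 80.9 CPM in sorted vehicle libraries. Tumor levels were 86.3, 481, 448, 188 and 163 CPM in CD40 mAb and 474, 530, 500 and 589 CPM in vehicle tumors, and the changes differed by 1.14 ± 0.61 (adjusted p = 0.393). Its tumor values were split, with tumor CD40 mAb 2 and 3 near vehicle and 1, 4 and 5 below. Among hypoxia and glycolysis genes, the glucose transporter Slc2a1 was at 1065, 70.6, 87.2, 800 and 136 CPM in CD40 mAb and 141, 195, 77.04 and 67.5 CPM in vehicle tumors, high in tumor CD40 mAb 1 and 4, and at 341, 360 and 365 CPM in sorted CD40 mAb and 258, 211, 233 and 191 CPM in sorted vehicle libraries. All 16 hypoxia genes had positive changes in each material, beside 9125 of 19478 genes in sorted cells and 10756 in tumor, and the median difference of -0.42 included 0 called. Their summed level was 15520 and 12770 CPM in tumor CD40 mAb 1 and 4. It was 3204, 3376 and 4243 CPM in tumor CD40 mAb 2, 3 and 5, within the 2913 to 5169 CPM of vehicle tumors.

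Immediate early and heat shock genes had 5 of 15 members at an unadjusted p under 0.05 for the interaction, beside 2918 of 19478 genes, and 0 called (median 0.50, beside -0.09 over all genes). Egr1, an early response transcription factor, was at 271, 191 and 278 CPM in sorted CD40 mAb and 83.5, 135, 57.2 and 139 CPM in sorted vehicle libraries. Tumor levels were 11.6, 22.95, 26.8, 13.4 and 27.7 CPM in CD40 mAb and 33.9, 32.3, 31.2 and 26.3 CPM in vehicle tumors. It rose in sorted cells (1.25 ± 0.32, adjusted p = 0.0402), and the difference of 1.85 ± 0.43 did not pass (adjusted p = 0.0813). Egr2 rose as well (1.37 ± 0.31), with a difference of 1.30 ± 0.42 (adjusted p = 0.179). Type I interferon-induced genes were negative in 19 of 19 members in sorted cells and in tumor, where 9125 and 10756 of 19478 genes were positive. Their summed level was 2933, 7956 and 4990 CPM in sorted CD40 mAb 6, 7 and 10, against 6846 to 9241 CPM in sorted vehicle libraries. In tumor CD40 mAb 1 to 5 it was 822, 2955, 2743, 1678 and 1602 CPM, against 2433 to 2771 CPM in vehicle tumors. Sorted CD40 mAb 7 and tumor CD40 mAb 2 and 3 were thus not below the vehicle range. In sorted cells 2 members were called lower, Oas2 and Mx1, beside 2.44% of all genes, and 0 for the interaction (median -0.16). Oas2, an antiviral enzyme that makes oligoadenylate, was at 103, 223 and 167 CPM in sorted CD40 mAb and 415, 254, 538 and 593 CPM in sorted vehicle libraries. Tumor levels were 33.1 to 94.8 and 74.96 to 84.3 CPM in CD40 mAb and vehicle tumors, and the changes differed by -1.20 ± 0.46 (adjusted p = 0.247). Of the other lists, each with 0 called, immune cell lists had median differences of -0.18 for monocyte markers, -0.52 for conventional dendritic cell markers, -0.59 for NK cell markers, 0.12 for B cell markers and 0.08 for eosinophil, basophil and mast cell markers. The medians were 0.08 for interferon-gamma-induced genes, 0.08 for MHC class I, -0.03 for MHC class II and -0.01 for NF-kappaB target genes. Lists of other tissues had -0.26 for fibroblast and matrix genes, -0.41 for endothelial markers, -0.57 for platelet markers and -0.63 for skeletal muscle, skin and fat genes.

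The genes that changed in sorted cells had small changes in tumor. Of the 475 that rose in sorted cells, 328 had a positive change in tumor (69.1%), with a median log2 change of 1.25 in sorted cells and 0.15 in tumor. Of the 475 that fell, 285 had a negative change in tumor (60%), with medians of -1.23 and -0.06. Over all 19478 genes the signs matched for 53.4%. Across genes the changes in the 2 materials had a Pearson r of 0.142 and a Spearman rho of 0.156 (n = 19478), and of 0.264 and 0.193 for the 12255 genes at 1 CPM or more in both. Genes are not independent replicates, and within a material all genes share the same libraries. The count of 950 in sorted cells was 386, 1280 and 299 without sorted CD40 mAb 6, 7 and 10. Without sorted vehicle 6, 7, 9 and 10 it was 632, 1082, 441 and 391. It was 1684, 626 and 604 without tumor CD40 mAb 5, tumor vehicle 1 and tumor vehicle 4, since all 16 libraries enter 1 fit.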

How the data were processed

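RNA-seq of 52 libraries was deposited as 1 gene table, of which 16 libraries were used. The authors' values are estimated counts from salmon, per the table's own name, not scaled for depth or length, and 12% of cells were not whole, so they were rounded. STAR (version 5.1) and GRCm38 are named in the submitters' processing notes. Per the labels' protocols, polyA RNA was prepared with a stranded Illumina kit. They name 2 extraction kits and do not say which served which library. Of 57010 genes, 19478 passed filterByExpr (edgeR 4.0.16, minimum count 10, minimum total 15). The 16 libraries were fitted with 4 groups, TMM scaling and robust quasi-likelihood tests (R 4.3.3), with Benjamini-Hochberg adjustment over all genes. Each adjusted p given is from this fit, apart from those given for fits with 1 library left out, which used the same test. Errors of log2 changes are SE. The scripts were tested on simulated counts. Alternatives used DESeq2 1.42.0, limma 3.58.1 voomLmFit, other scalings, filters and libraries. Coordinates are from GENCODE vM21 (GRCm38), matched by identifier for 52029 genes. Figures were drawn with matplotlib 3.10.9.

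Named were the 12 largest called differences in each direction among genes at 1 CPM or more in both materials (9 qualified below 0), leaving out predicted genes and Riken clones. Members of lists were drawn from the 3 of smallest interaction p of each list. Not every one of these list members is given in the text, so those given are not a full set. Other genes named were chosen after their values were seen. The members and the 30 gene lists were chosen with earlier results of these data known. Of 423 list entries 412 passed the filter, and Ero1l was not found. Replicates are libraries with different numbers in their titles.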

Additional observations from a re-analysis of the deposited data

Results flagged for a closer look

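Some of the called genes named above, among them Nectin1, Ctnnd1, Timp2 and Meg3, were not followed under alternative settings. For the 25 called genes that were followed, the CD40 mAb effect differed between sorted cells and whole tumor, by the test of the interaction itself. The difference of log2 changes was positive for Cxcl1 (5.26), Pmp22 (3.11), Lmna (2.94), Flrt2 (2.88), Emp1 (2.77), Etv1 (2.66), Bcar3 (2.63), Nrp2 (2.27), Trim47 (2.08), Plxna1 (2.04), Smoc1 (2.01), B3gnt3 (1.94), Anxa1 (1.78), Rgl1 (1.77) and Tspan3 (1.70). It was negative for Trip6 (-2.0), Ankrd16 (-1.75), Fam193b (-1.45), Ccnl2 (-1.43), Zfp950 (-1.42), Clk4 (-1.31), Mtfmt (-1.31), Chkb (-1.08) and Sh2b1 (-0.70). For Sh2d4a, at 0 in 3 of 4 sorted vehicle libraries, the fitted value of 5.66 depends on the prior count and is no measure of size.

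Dixon's criterion for a library far from its group was not applied to the sorted CD40 mAb group (n = 3), so nothing is said of that group here. In 17 of 291 sets of values tested in the other groups, 1 library lay far from the others of its group by this criterion, which chance gives in about 1 of 20. In 5 of the 17 it was tumor CD40 mAb 5, with Flrt2 at 20.5 CPM, Trim47 at 54.0 CPM and Trip6 at 21.7 CPM below the other CD40 mAb tumors, and Gzmk at 35.7 CPM and Nfkbia at 179 CPM above them. Among vehicle tumors the library far from the rest was at 3.19 CPM for Cxcl1, 209 CPM for Nrp2, 63.1 CPM for Sh2b1, 12.1 CPM for Folr2 and 102 CPM for Plac8, and at a summed 293 CPM for B cell markers and 9865 CPM for MHC class I genes. Among sorted vehicle libraries it was at 28.7 CPM for Plxna1, 0.0505 CPM for Sh2d4a and 9.85 CPM for Egr2, and at a summed 1168 CPM for dendritic cell maturation genes and 1027 CPM for inflammatory genes.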

How the results depend on the processing

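The interaction count of 50 was 47 with DESeq2 size factors in edgeR (25 higher, 22 lower) and 33 with no filter on low counts (24 higher, 9 lower). It was 22 with voomLmFit (21 higher, 1 lower) and 23 with all 24 sorted and tumor libraries fitted (9 higher, 14 lower). With DESeq2 it was 840 (345 higher, 495 lower). Scaling on pan-leukocyte genes gave 0 and moved the median of all genes to -0.28. In sorted cells 950 became 965, 541, 740, 614, 2425 and 52 under the same settings. In whole tumor it was 0 except with DESeq2 (24). A fit of the 9 tumor libraries alone called 0, and one of the 7 sorted libraries alone 732. A filter chosen after seeing the data, at least 1 CPM in both materials, gave 53 and 851. Without each library in turn the ranges were 12 to 246 (interaction), 299 to 1684 (sorted cells) and 0 to 0 (whole tumor). With the number in the title as a replicate block, 2 genes were called for the interaction (2 higher, 0 lower) and 21 in sorted cells. Of these 2, 1 was among the 50, and 1 of the 25 called genes followed kept its call. Deviations from the group means correlated at -0.102 to 0.161 for the 7 same-number pairs and at -0.351 to 0.419 for the 25 other pairs. With so few pairs, and deviations taken within small groups, these values cannot decide on pairing. The numbers were treated as names only. The 25 called genes followed kept their direction in 598 values under alternatives and lost the call in 231. Of the 42 genes followed that were not called, Traf3 turned to -0.042 with pan-leukocyte scaling and Ptprc to 0.25 without tumor CD40 mAb 5 (-0.54 to 0.25 over the libraries left out), and 12 values gained a call. These were S100a8, Folr2, Mrc1, Egr1, Ctsl, Lgals4, Hba-a1 and Hbb-bs with DESeq2, Folr2, Egr1 and Egr2 without sorted CD40 mAb 7, and Nfkbia without tumor CD40 mAb 5. The causes were not tested.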
